A study of Mus musculus with 44 samples.

Results

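The genes described here encode the AP-1 family of transcription factors, as far as the chosen list holds it: the Jun proteins (Jun, Junb, Jund), the Fos proteins (Fos, Fosb, Fosl1, Fosl2), the stress-induced factor Atf3 and the small Maf protein Maff. They are 9 of the 21887 protein-coding genes examined, taken by symbol from a list. The study mapped 4 histone modifications in mouse liver cells that turn from hepatocytes into biliary-like cells during cholestatic injury. Antibody-directed Tn5 tagmentation of lightly fixed nuclei gave 1 peak list per modification and cell preparation, 44 lists in all.

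All mice were labelled wild type in the sample records, and the study's design names them as Rosa26-LSL-Cas9-EGFP. All received AAV8-TBG-Cre, a vector in which a hepatocyte promoter drives Cre, at 5e11 gc per mouse, so that hepatocytes and their descendants carry EGFP. Hep is hepatocytes of such mice on normal diet, taken by density gradient (2 libraries per modification). The other cells came by FACS from mice fed 0.1% DDC, a porphyrinogenic bile-duct toxicant, for 8 to 9 weeks from 1 week after the vector. They were early reprogrammed cells (EGFP+ CD24-, 2 libraries), intermediate cells (EGFP+ CD24+ EPCAM-, 2), late cells (EGFP+ CD24+ EPCAM+, 3) and resident biliary cells without the label, BEC (EGFP- EPCAM+, 2). Against Hep, the diet, the way of isolation and the cell stage cannot be told apart. Lineage calls rest on Cre from the TBG promoter, and the age of the mice was not given. The labels number the libraries but do not say that they came from separate mice, so p-values measure the spread between libraries, which may be technical.

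AP-1 factors are basic leucine-zipper proteins that bind DNA as Jun-Jun or Jun-Fos dimers. Jun and Fos are immediate-early genes, switched on within minutes of growth factor or stress signals, and in mouse liver Jun takes part in hepatocyte survival and regeneration. Trimethylation of histone H3 at lysine 4 (H3K4me3) marks active promoters, H3K27ac marks active promoters and enhancers, H3K4me1 marks enhancers, and H3K27me3 is the Polycomb mark of silenced genes.

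A value below is the number of bases covered by peaks, either within 2500 bp of a gene's start (promoter) or over the gene and 50000 bp on each side (locus). It is not a read count, and depth was not given, so a wider and a stronger signal cannot be told apart. Hep libraries covered more of the genome with H3K27ac (13.6 and 14.6 Mb) than the sorted libraries did (5.74 to 13.1 Mb), and the lowest of all was late 1, whose peaks were unusually short. Hepatocyte markers had a promoter H3K4me3 peak for 10 of 10 genes in both Hep libraries and for 4 and 5 of 10 in BEC, while biliary markers had one for 3 and 4 of 10 in Hep and 10 of 10 in BEC. Early libraries had 8 and 9 hepatocyte and 4 and 5 biliary markers, with none at Krt7 or Krt19. Intermediate libraries had 8 and 8 hepatocyte and 9 and 10 biliary markers, and the 3 late libraries 7 each and 9 or 10. Of markers of other cells, 1 of 10 macrophage, at most 1 of 9 lymphocyte, at most 1 of 10 neutrophil, at most 4 of 10 endothelial and at most 4 of 10 stellate genes had such a peak in any library; what part other cells had in the values below was not tested. Fewer cells of a type and a weaker mark per cell cannot be told apart in bulk cells.

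Every AP-1 gene, Fosl1 as placed by the rule below, had promoter H3K4me3 in Hep. Jun (1534.5 ± 180.3 bp, SD, n = 2) and Maff (1519.5 ± 145.0 bp) were broadest and overlapped each other, and Fosl1 (554.0 ± 132.9 bp) was narrowest, below all others. In the cells of DDC-fed mice the family split. Jun, Junb, Jund, Fosl2, Atf3 and Maff had less H3K4me3 in all 9 libraries than in either Hep library, 6 of 9 genes, where 11.9% of the 13654 genes tested did so. Fos, Fosb and Fosl1 overlapped Hep. The direction of late cells against Hep at Fosl2, Atf3 and Maff turned round under some settings, as given below.

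**Figure D1:**
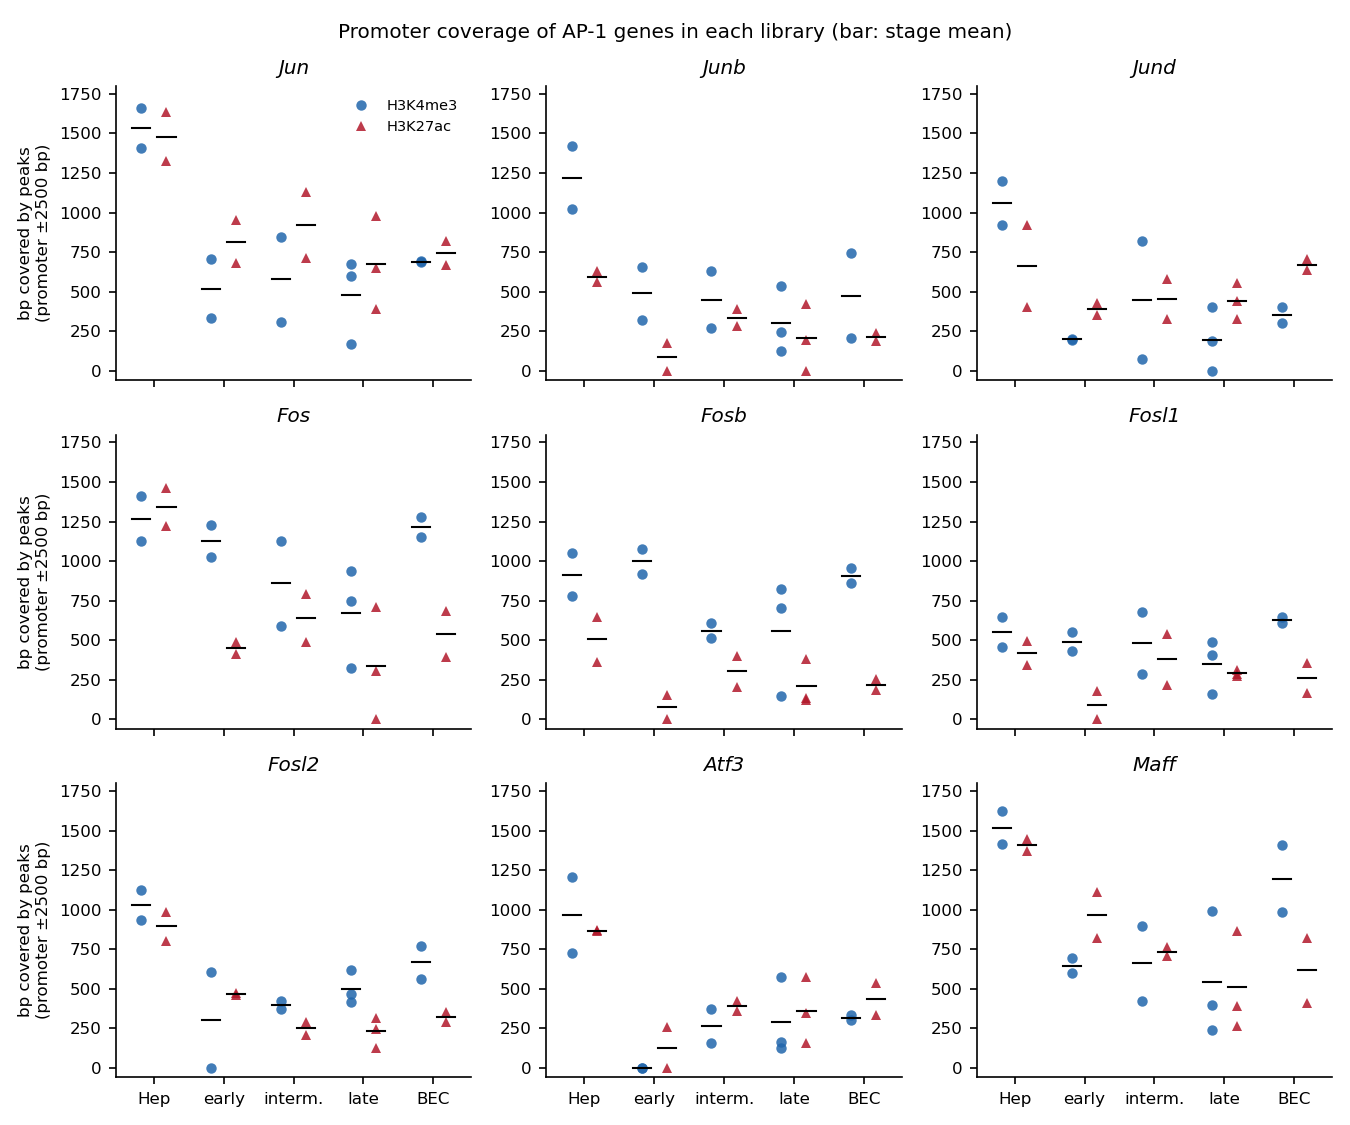
Bases covered by H3K4me3 (circles) and H3K27ac (triangles) peaks within 2500 bp of each gene's start, per library, from Hep through the reprogramming stages to BEC; black bars are stage means. For 6 of the 9 genes, all but Fos, Fosb and Fosl1, both Hep circles lie above every other circle. The Fosl1 panel is that of the right gene end, beside Ccdc85b, and its left end is not drawn.

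Among the Jun genes, Jun itself, the main partner in AP-1 dimers, had 1662 and 1407 bp of promoter H3K4me3 in Hep, 334 and 705 in early, 309 and 845 in intermediate, 171, 675 and 598 in late and 694 and 687 bp in BEC. All 9 other libraries lay far below the lower Hep value. Junb, which can restrain Jun activity, had 1021 and 1419 bp in Hep, 319 and 658 in early, 269 and 629 in intermediate, 128, 538 and 245 in late and 205 and 746 bp in BEC. Jund, the Jun protein most steadily present in resting cells, had 1201 and 924 bp in Hep, 193 and 204 in early, 72 and 818 in intermediate, 0, 188 and 404 in late and 305 and 405 bp in BEC. All 3 were thus lower in every library of DDC-fed mice, with wide gaps between libraries of 1 stage. None passed the test in either contrast in the main fit, which has no term for library number. For late minus Hep the log2 difference was -1.63 ± 0.55 for Jun (SE, limma adjusted p = 0.102), -1.82 ± 0.58 for Junb (adjusted p = 0.0778) and -2.24 ± 0.69 for Jund (adjusted p = 0.0698), on log2(bp + 100).

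At the Jun promoter, H3K4me3 reached less far into the gene in 8 of the 9 libraries of DDC-fed mice than in either Hep library. Peaks reached 1248 and 1106 bp downstream of the start in Hep 1 and Hep 2, and between 203 bp downstream and 1046 bp upstream in early, BEC, intermediate 1, late 1 and late 2. Intermediate 2 reached 1040 bp downstream, just short of Hep, and late 3, the exception, 2218 bp.

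Among the Fos genes, Fos had 1130 and 1409 bp in Hep, 1230 and 1029 in early, 592 and 1128 in intermediate, 323, 940 and 749 in late and 1153 and 1277 bp in BEC, and both intermediate and all 3 late libraries lay below Hep while early and BEC overlapped it. Fosb, a paralogue of Fos with a truncated splice form, had 1053 and 778 bp in Hep, 921 and 1076 in early, 611 and 512 in intermediate, 150, 706 and 822 in late and 861 and 957 bp in BEC. Its early and BEC values lay within or just above the Hep range, and late 3 lay within it. Fosl2 (Fra-2) lay below Hep throughout: it had 1124 and 938 bp in Hep, 0 and 606 in early, 425 and 370 in intermediate, 416, 622 and 465 in late and 770 and 564 bp in BEC.

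Fosl1 (Fra-1), which lacks the transactivation domain of Fos, needs its own account because the tables used give neither its start nor its strand. The rule placed it at the gene end with more H3K4me3, on the right (chromosome 19, position 5455938 in mm10), and that signal is centred 256 bp from the start of the neighbouring gene Ccdc85b. Its value there, 460 and 648 bp in Hep and 161 to 677 bp in the 9 other libraries, cannot be separated from Ccdc85b. At the left end, where mouse Fosl1 is known to begin, H3K4me3 covered 0 and 0 bp in Hep, 428 and 408 in early, 262 and 901 in intermediate, 0, 453 and 614 in late and 920 and 805 bp in BEC (region chr19:5447450-5448852). It is the only AP-1 gene with H3K4me3 at its start in no Hep library; 8 of 9 libraries of DDC-fed mice had it, and late 1, the short-peak library, did not. With that placement, chosen after its values were seen, early minus Hep was 2.37 ± 0.76 (adjusted p = 0.268) and late minus Hep 1.77 ± 0.69 (adjusted p = 0.159), so neither passed. H3K27ac followed hardly at all, with 156 bp in intermediate 2, 110 bp in BEC 1 and 0 bp in the other 9 libraries.

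Atf3, a repressor and stress sensor induced by injury, had the largest log2 difference of the 9 genes at promoter H3K4me3. The mark covered 0 and 0 bp in early cells, against 725 and 1205 bp in Hep, a log2 difference of -3.38 ± 0.57 (adjusted p = 0.0107). It was the only AP-1 gene called for this mark in that contrast, where 0.681% of genes were called, 51 higher and 42 lower. The call was lost without Hep 1, Hep 2, early 1 or early 2 (adjusted p = 0.0973 to 0.195), with the log2 difference between -3.71 and -3.04 over all left-out libraries. It was also lost after quantile normalization (-2.75), and among the higher-scoring peaks of each library, which held none at the Atf3 promoter in Hep or early cells. Intermediate cells had 160 and 374 bp, late cells 126, 163 and 573 bp and BEC 332 and 302 bp.

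**Figure D2:**
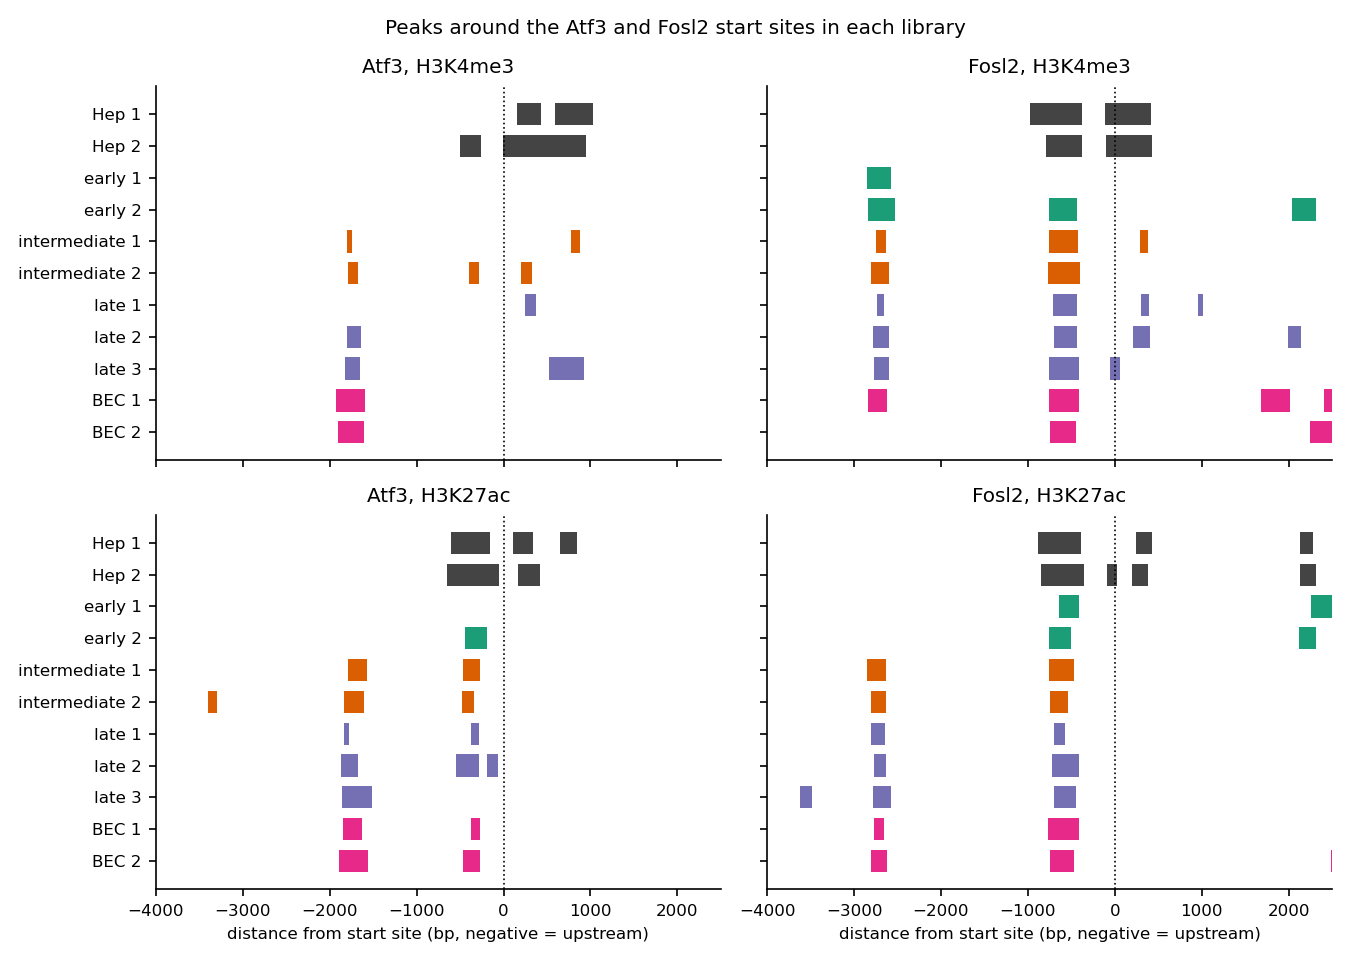
Peaks of H3K4me3 (top) and H3K27ac (bottom) in every library by distance in bp from the start sites of Atf3 (left) and Fosl2 (right), coloured by stage; the dotted line is the start. The upstream H3K27ac peaks, 1708 bp (Atf3) and 2711 bp (Fosl2) before the start, are absent from both Hep and both early libraries.

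The Atf3 signal of later stages lay partly elsewhere. Around the start (chr1:191182299-191183833) H3K4me3 covered 725 and 1205 bp in Hep, 0 in both early, 99 and 252 in intermediate, 126, 0 and 396 in late and 0 bp in both BEC libraries. At chr1:191184931-191185262, 1763 bp upstream, it covered 0 bp in all Hep and early libraries, 61 and 122 in intermediate, 0, 163 and 177 in late and 332 and 302 bp in BEC. All promoter H3K4me3 of Atf3 in BEC and in late 2 thus lay upstream. The shortest H3K4me3 peak listed was 193 bp in early 1 and 186 bp in early 2, longer than each upstream value of intermediate and late cells. What this adds to the absence in early cells was not tested. H3K27ac at the upstream site showed 0 bp in all 4 Hep and early libraries, 217 and 230 in intermediate, 61, 190 and 344 in late and 223 and 338 bp in BEC. A further H3K4me3 region at -10441 bp was a BEC feature, with 454 and 762 bp in BEC, 61 bp in intermediate 1 and 0 bp in the other 8 libraries. At -41364 bp H3K4me3 (166 to 760 bp) and H3K27ac (244 to 1198 bp) were present in all 11 libraries; human ATF3 is known to have a far upstream promoter, and the tables used here list no mouse start there.

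Maff, a small Maf protein without a transactivation domain, had 1417 and 1622 bp of H3K4me3 in Hep, 695 and 599 in early, 423 and 899 in intermediate, 239, 989 and 399 in late and 1406 and 985 bp in BEC. BEC 1 lay only just below Hep. All peaks lay between 664 and 2466 bp downstream of its first listed start, in the stretch that holds its listed starts 2 and 3.

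Promoter DNA of 2 of these genes, Jun and Maff, held exact matches to the motifs searched here. RefSeq's promoter table (GRCm38.p6, the build of the peaks) holds 8 of the 9 genes, all but Fosl1, as 300 bases from 250 before each start; Maff has 3 starts. TGANTCA, the AP-1 element, was in none of the 10 sequences on either strand (7.81% of the 32851 promoters in the table have it), nor was a CArG box (1.63%). Sites more than 250 bases upstream lie outside these sequences, so their absence from the gene's control DNA was not tested. TGACATCA, the variant known from the Jun promoter that Jun-Atf dimers bind, began at base -45 at Jun and at Maff start 3 (3.62% of promoters). TGACGTCA, the cyclic AMP response element that Atf and Creb factors bind, began at base -29 at Maff start 2 (1.79%). No match overlapped another, and a match is letters only. Only these exact letters were searched, so variant sites that AP-1 or Atf dimers may bind were not counted in any gene. Jun and the 2 Maff starts are shown for these motifs, in capitals, 5′ to 3′ on the gene's strand. Atf3, with no exact match, is shown because its promoter had the largest H3K4me3 difference.
Jun (chr4:95052173-95052472, minus strand): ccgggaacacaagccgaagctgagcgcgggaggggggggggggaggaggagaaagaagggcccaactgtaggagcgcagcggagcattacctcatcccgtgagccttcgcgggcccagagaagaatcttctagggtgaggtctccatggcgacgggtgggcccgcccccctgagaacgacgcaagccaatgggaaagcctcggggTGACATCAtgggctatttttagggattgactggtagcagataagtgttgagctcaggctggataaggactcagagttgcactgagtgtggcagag
Maff start 2 (chr15:79347270-79347569, plus strand): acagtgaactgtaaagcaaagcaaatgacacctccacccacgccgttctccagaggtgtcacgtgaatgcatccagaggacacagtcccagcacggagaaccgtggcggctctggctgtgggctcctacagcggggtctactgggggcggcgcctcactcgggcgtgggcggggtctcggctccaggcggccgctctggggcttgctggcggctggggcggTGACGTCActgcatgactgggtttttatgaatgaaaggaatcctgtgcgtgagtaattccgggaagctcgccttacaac
Maff start 3 (chr15:79348152-79348451, plus strand): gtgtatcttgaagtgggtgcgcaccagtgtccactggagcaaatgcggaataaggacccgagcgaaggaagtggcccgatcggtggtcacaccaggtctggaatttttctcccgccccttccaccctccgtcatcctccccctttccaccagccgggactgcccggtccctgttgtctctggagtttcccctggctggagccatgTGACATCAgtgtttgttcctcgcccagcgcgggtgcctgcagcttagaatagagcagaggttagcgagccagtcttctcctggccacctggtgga
Atf3 (chr1:191183284-191183583, minus strand): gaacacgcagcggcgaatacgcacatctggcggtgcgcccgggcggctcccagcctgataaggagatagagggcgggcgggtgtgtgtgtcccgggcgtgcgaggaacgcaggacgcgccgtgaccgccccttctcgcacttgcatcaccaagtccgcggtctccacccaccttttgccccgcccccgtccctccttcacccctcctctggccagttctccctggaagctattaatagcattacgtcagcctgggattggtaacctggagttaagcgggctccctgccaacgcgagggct

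For late minus Hep no member was called for promoter H3K4me3 by limma, where 6.29% of all genes were called. With a replicate block, a term for library number, Jun, Junb, Jund and Atf3 were called lower. The labels do not say whether same-numbered libraries belong together. After quantile normalization Jun was called lower in both contrasts (-1.15 for early minus Hep, adjusted p = 0.0466, and -0.83 for late minus Hep, adjusted p = 0.0414). The 6.29% above is that of the main fit. The share of all genes called is not given here for either setting, so these calls cannot be read as particular to AP-1 genes. The median log2 difference of the 9 members was -1.21 for early minus Hep and -1.51 for late minus Hep, against -0.06 and -0.66 over all genes tested. Over the alternative settings, late minus Hep stayed below 0 at Jun, Junb and Jund. At its highest setting it was 0.37 at Fosl2, 0.465 at Atf3 and 0.95 at Maff, so the direction at these genes depended on the setting.

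Promoter H3K27ac was lower than Hep at most of these genes, as at much of the genome. Atf3, Fos, Fosl2, Jun, Junb and Maff had less in all 9 libraries of DDC-fed mice than in either Hep library, 6 of 9 genes, beside 43.3% of the 12672 genes tested. Fosb, Fosl1 and Jund overlapped Hep, and Jund averaged 671.0 ± 49.5 bp in BEC, against 661.0 ± 364.9 bp in Hep (SD, n = 2 each). Summed promoter H3K27ac of the 10 macrophage markers was 0 to 122 bp in Hep, 875 to 1042 in early, 895 to 1433 in intermediate, 323 to 1105 in late and 360 to 500 bp in BEC, from at most 2 of the 10 genes, with no peak at Adgre1, C1qa, Clec4f, Csf1r or Timd4 in any library; its part in these values was not tested. Fos had an H3K27ac cover of 1461 and 1223 bp in Hep, 414 and 489 in early, 791 and 488 in intermediate, 306, 708 and 0 in late and 393 and 688 bp in BEC. Both early libraries lay far below Hep, while its H3K4me3 overlapped Hep there; late minus Hep was -2.17 ± 0.71 (adjusted p = 0.051). Jun had the highest BEC mean of the family: 1328 and 1633 bp in Hep, 951 and 681 in early, 1127 and 711 in intermediate, 392, 979 and 651 in late and 671 and 819 bp in BEC.

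In early cells, H3K27ac covered 0 and 156 bp of the Fosb promoter, against 648 and 362 bp in Hep. The log2 difference was -1.88 ± 0.56 (limma adjusted p = 0.0361). For Atf3 it covered 0 and 256 bp in early cells, against 871 and 865 bp in Hep (-2.36 ± 0.61, limma adjusted p = 0.0235). In late cells it covered 129, 316 and 247 bp of Fosl2, against 804 and 986 bp in Hep, a difference of -1.63 ± 0.33 (limma adjusted p = 0.0118). Maff had 268, 868 and 390 bp in late cells, against 1447 and 1368 bp in Hep (-1.43 ± 0.44, limma adjusted p = 0.043). These are 2 of 9 members in each contrast, both lower, a share close to that of all genes, where 25.3% of genes were called for early minus Hep (109 higher, 3101 lower) and 23.8% for late minus Hep (570 higher, 2441 lower). The median of all genes itself moved, by -0.93 and -0.81, and the members' medians were -1.39 and -1.19. After quantile normalization, which sets the median near 0, all genes split into 113 higher and 21 lower calls for early minus Hep and 701 and 525 for late minus Hep, and no member was called. Each of the 4 calls was lost without Hep 1 or Hep 2, both early calls also without early 1, and Maff also without intermediate 1, intermediate 2, late 1 or late 3 (adjusted p for Maff 0.0501 to 0.187). A replicate block removed the calls of Fosb, Fosl2 and Maff. With peaks resized to one width Maff turned round, to 0.60 for late minus Hep.

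H3K4me1 within the promoter window was highest in Hep. For 7 of 8 members tested (Atf3, Fos, Fosb, Jun, Junb, Jund and Maff) all 9 other libraries lay below both Hep libraries, beside 46.9% of 13638 genes; Fosl2 had a peak in 1 library only. Junb, for example, had 842 and 512 bp in Hep, 240 bp in intermediate 1 and 0 bp in the other 8 libraries. H3K27me3 was absent from the 9 promoter windows in all libraries, except 189 bp 1642 bp upstream of Junb in Hep 2.

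**Figure D3:**
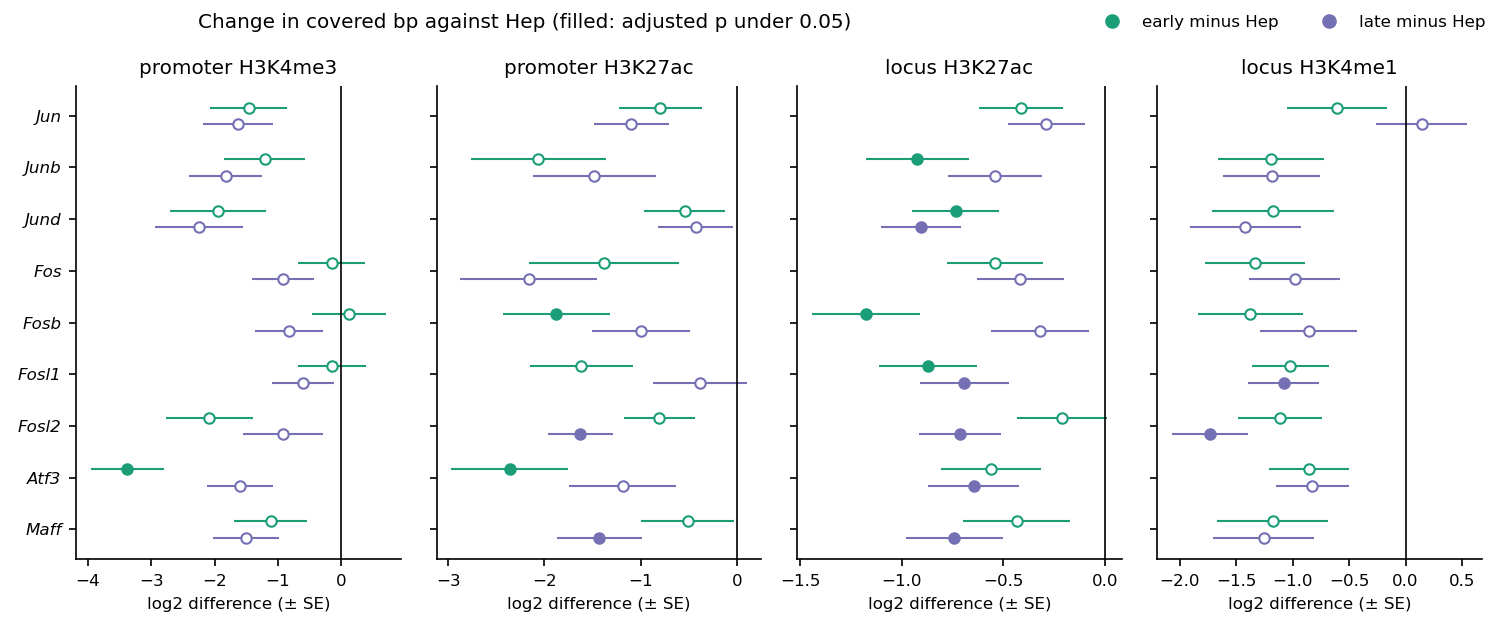
Log2 difference in covered bases, early minus Hep (green) and late minus Hep (purple), for each AP-1 gene and each of 4 measures, with SE; filled points passed an adjusted p of 0.05. All differences but Fosb promoter H3K4me3 (early) and Jun locus H3K4me1 (late) lie below 0. Fosl1 promoter points are those of the right gene end, beside Ccdc85b. At its left end, not drawn, promoter H3K4me3 differed by 2.37 (early) and 1.77 (late), neither called.

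Over whole loci, called members were again all lower. For early minus Hep, locus H3K27ac was called lower at 4 of 9 members (Junb -0.92 ± 0.25, Jund -0.73 ± 0.22, Fosb -1.18 ± 0.27, Fosl1 -0.87 ± 0.24, adjusted p = 0.00967 to 0.0217), where 38.8% of genes were called (170 higher, 6765 lower). For late minus Hep it was called lower at 5 (Jund -0.91 ± 0.20, Fosl1 -0.69 ± 0.22, Fosl2 -0.71 ± 0.20, Atf3 -0.65 ± 0.23, Maff -0.74 ± 0.24, adjusted p = 0.0038 to 0.0321), where 50.3% were called (760 higher, 8237 lower). Both shares are near those of all genes. Under quantile normalization the splits were 1393 higher and 1115 lower, and 3075 and 2952, and among members only Fosb for early minus Hep stayed called. That Fosb call was lost with equal numbers of peaks per library, among the higher-scoring peaks and without promoter windows. None of these 9 calls held without Hep 2 (adjusted p = 0.0502 to 0.174 over the libraries that ended a call). All 4 early calls were also lost without early 1, those of Junb, Jund and Fosl1 without early 2, and the early call of Jund without Hep 1. The late calls of Atf3 and Maff were lost without Hep 1, late 1 or late 3, and that of Fosl1 without late 1. A replicate block removed the late calls of Fosl1, Fosl2, Atf3 and Maff. With peaks resized to one width, late minus Hep turned round at Maff (0.34) and Fosl1 (0.007754). Other protein-coding genes share most of these loci (8 at Junb, 5 at Jund, 7 at Fosb, 11 at Fosl1, 1 at Atf3, 2 at Maff); none shares those of Jun, Fos and Fosl2.

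The Fosb locus dipped in early cells. Its H3K27ac covered 2841 and 3102 bp in Hep, 555 and 980 in early, 3741 and 2739 in intermediate, 1483, 3284 and 2039 in late and 1941 and 3248 bp in BEC, so that both early libraries lay below all 9 others. Intermediate minus early was 1.26 (unadjusted p = 0.000468, adjusted p = 0.109), and after quantile normalization 1.05 (adjusted p = 0.00391), with late minus early at 0.90 (adjusted p = 0.000512). The early H3K27ac libraries also held the fewest peaks genome-wide, 23511 and 35824, against 38040 to 51807 in the others. What this adds to the dip was not tested, and how many other loci were lowest in both early libraries was not counted. The Fosl2 locus had no such dip: it had 2645 and 3015 bp in Hep, 3029 and 1715 in early, 1906 and 1397 in intermediate, 991, 1748 and 1316 in late and 1606 and 1705 bp in BEC. Late minus early at Fosl2 was -0.50 (adjusted p = 0.194) and, after quantile normalization, -0.50 (adjusted p = 0.0197). As measured, 0.00559% of loci were called for intermediate minus early and 2.48% for late minus early. The shares after quantile normalization are not given here, so the Fosb and Fosl2 calls under it cannot be read as particular to these loci. Jun had 1328 and 1835 bp in Hep and 681 to 1622 bp in the other libraries, so that its groups overlapped.

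Locus H3K4me1 was called at 2 members for late minus Hep, Fosl1 (-1.08 ± 0.31, adjusted p = 0.0331) and Fosl2 (-1.73 ± 0.34, adjusted p = 0.0228), where 33.0% of genes were called (4 higher, 6233 lower). Fosl2 had 268, 469 and 424 bp in late cells, against 3568 and 3614 bp in Hep. Late 1 and late 3 were short-peak libraries for H3K4me1. They covered 4.99 and 3.03 Mb of the genome, against 16.5 and 19.7 Mb in Hep. Both calls were lost without Hep 1, Hep 2, late 1 or late 3 (adjusted p = 0.0863 to 0.231). Under quantile normalization all genes split into 1155 higher and 707 lower calls, Jun was called higher (0.87, adjusted p = 0.00446), and Fosl1 (-0.10) and Fosl2 (-0.62) were no longer called. Both were also lost with resized peaks, with a replicate block, without short-peak libraries and with a 100 bp pseudocount, and Fosl1 held in 3 of 12 other settings. For early minus Hep, limma called 0.0% of genes and no member.

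The H3K27ac regions behind these sums, peaks of the 11 libraries joined within 500 bp, numbered 105 over the 9 loci when present in at least 2 libraries. Of these, 20 had a peak in all 11 libraries, beside 12.6% of the 60082 such regions of the genome. A group of 8, or 7.62%, had a peak in all 7 intermediate, late and BEC libraries and in none of Hep or early, beside 4.68% of all regions. A group of 3 (2.86%) was in all 9 libraries of DDC-fed mice and in neither Hep library, beside 2.4%, and another 3 (2.86%) were in all Hep and early libraries and none of late or BEC, beside 2.73%. These patterns were chosen with values seen, and the last 2 shares are near that of the genome.

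**Figure D4:**
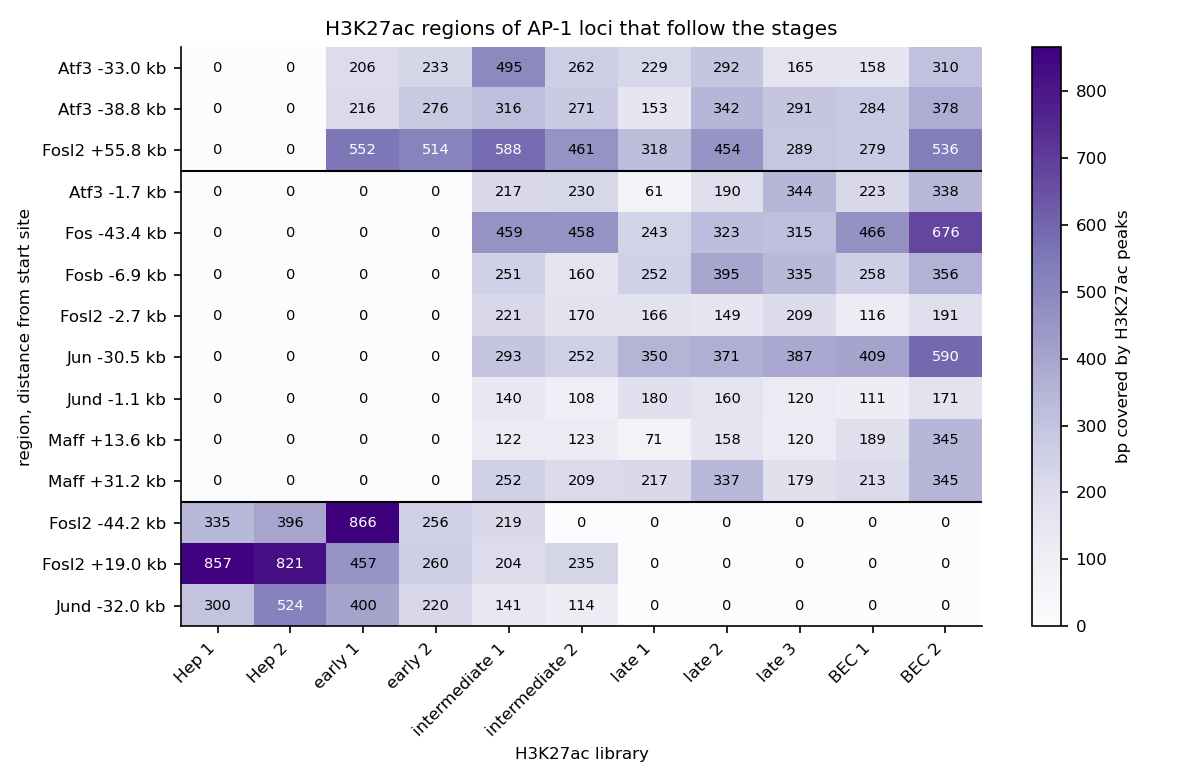
Bases covered by H3K27ac in each library (columns, Hep to BEC) at the 14 regions whose presence follows the stages (rows, named by gene and distance from its start). The top block of 3 is absent in Hep alone, the middle block of 8 is absent in Hep and early, and the bottom block of 3 is absent in late and BEC.

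The 8 regions shared by intermediate, late and BEC cells lay at 7 of the 9 genes. The Jun locus has no other protein-coding gene, and its region at -30516 bp (chr4:95082314-95083164) had 0 bp in the 4 Hep and early libraries, 293 and 252 in intermediate, 350, 371 and 387 in late and 409 and 590 bp in BEC. H3K4me1 appeared there in the same 7 libraries (146 to 612 bp) and in none of the 4 others. The Fos region at -43444 bp (chr12:85430013-85430880) had 459 and 458 bp of H3K27ac in intermediate, 243, 323 and 315 in late and 466 and 676 bp in BEC. Unlike at Jun, H3K4me1 was already there in Hep (297 and 378 bp) and early cells (213 and 600 bp). Both regions were far from any listed start, with no H3K4me3 and no H3K27me3 in any library.

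The others were Fosb at -6919 bp (160 to 395 bp in the 7 libraries), Maff at +13569 bp (71 to 345 bp) and +31175 bp (179 to 345 bp, nearer the start of Tmem184b), Jund at -1066 bp (108 to 180 bp), Atf3 at -1708 bp (61 to 344 bp) and Fosl2 at -2711 bp (116 to 221 bp). The shortest H3K27ac peak listed was 122 bp in each Hep library, 193 in early 1 and 123 in early 2, against 51 bp in late 1 and 106 bp in late 2. The Jund values were thus all below the shortest peak of early 1. What these lengths add to the absences in Hep and early cells was not tested. At the Fosl2 region the marks differed by stage: H3K4me3 covered 277 and 307 bp in early cells, where H3K27ac was absent, against 0 and 0 bp in Hep. In 6 of the 7 later libraries it covered 72 to 224 bp, and in BEC 2 it covered 0 bp.

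**Figure D5:**
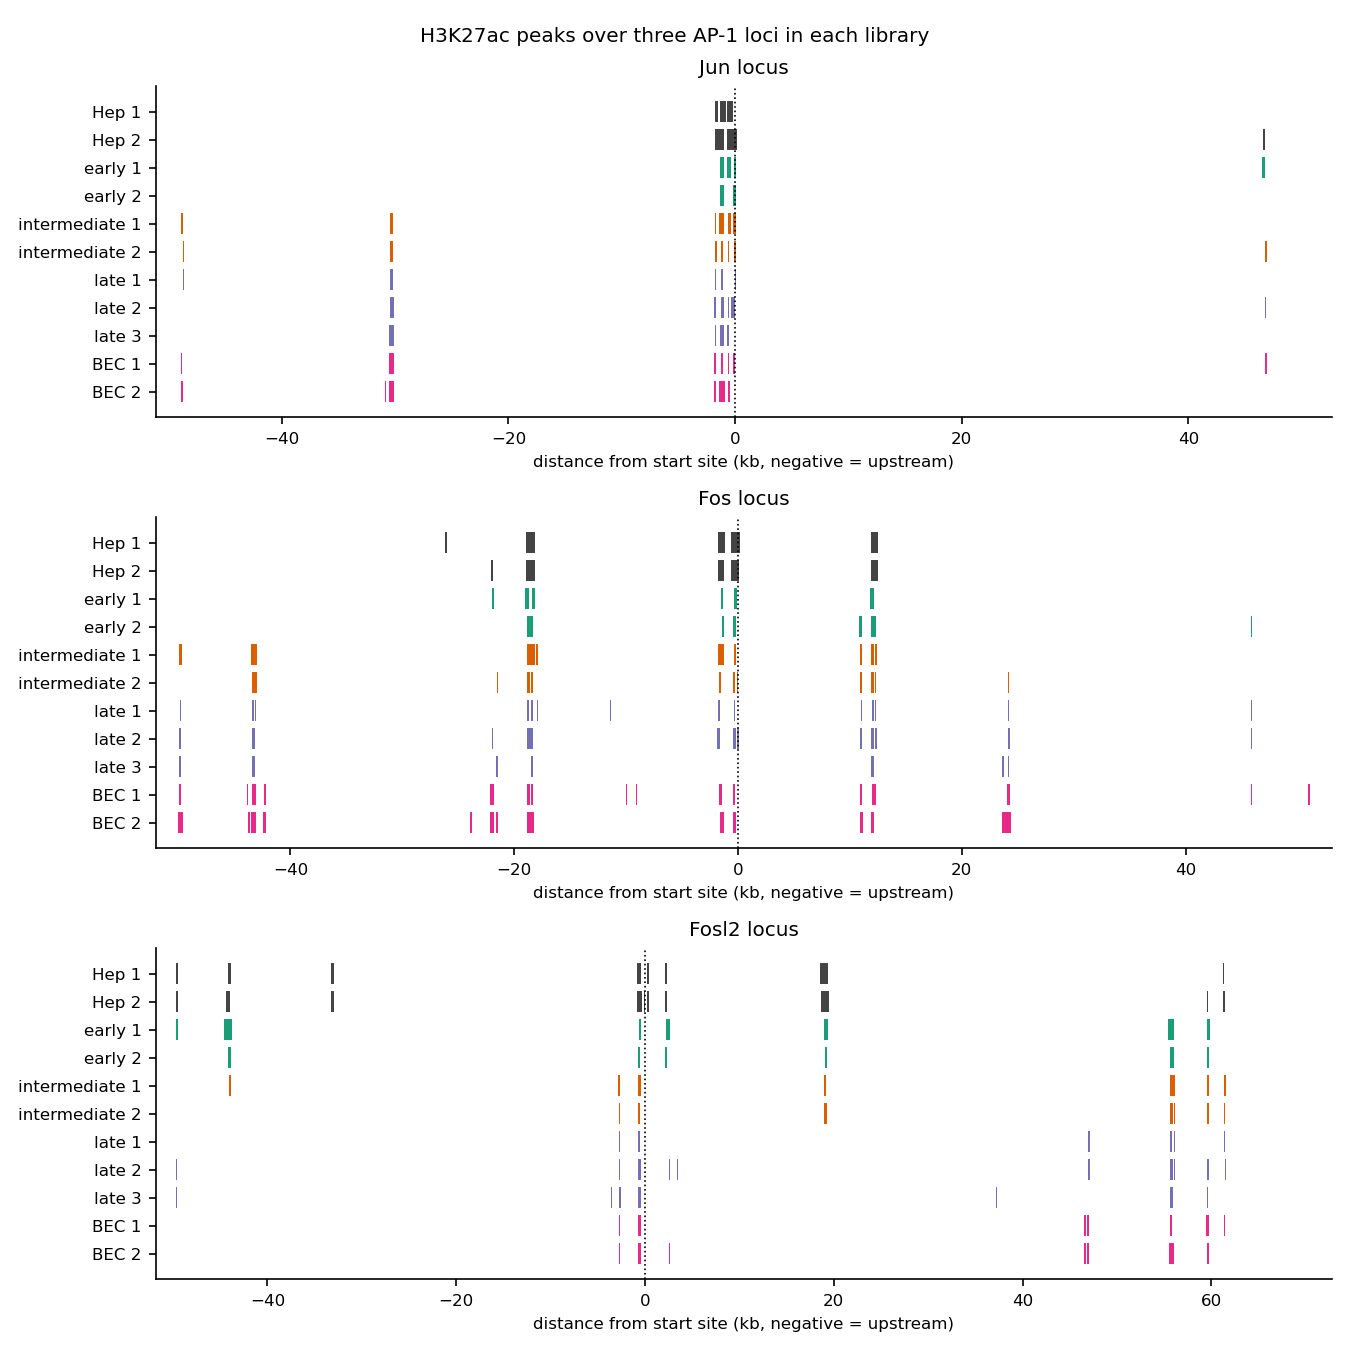
H3K27ac peaks in every library by distance in kb from the start sites of Jun, Fos and Fosl2, the 3 AP-1 genes whose loci hold no other protein-coding gene; colours are stages and the dotted line is the start. The Jun peak at -30516 bp and the Fos peak at -43444 bp are in intermediate, late and BEC rows only, and the Fosl2 peaks at -44186 and +18970 bp stop before late.

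Fosl2 exchanged regions. Its region at +18970 bp (chr5:32154958-32155928), inside the gene, had 857 and 821 bp in Hep, 457 and 260 in early, 204 and 235 in intermediate and 0 bp in all 5 late and BEC libraries, and H3K4me1 there was 872 and 692 bp in Hep, 216 and 214 in early and 0 bp in the other 7. The region at -44186 bp had 335 and 396 bp in Hep, 866 and 256 in early, 219 and 0 in intermediate and 0 bp after that. In contrast the region at +55808 bp (chr5:32191926-32192636) had 0 bp in Hep and 279 to 588 bp in the 9 others, with H3K4me1 in the same 9 (133 to 440 bp). The promoter nearest to the Fosl2 start is that of Plb1, 102612 bp away. Which gene the +55808 bp region acts on was not tested. The remaining region lost in late and BEC cells was Jund -32036 bp, nearest to Pgpep1.

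Atf3 gained 2 regions in all DDC-fed stages. At -38826 bp (chr1:191221956-191222363) H3K27ac covered 153 to 378 bp and H3K4me1 157 to 381 bp in the 9 libraries, and 0 bp in Hep. At -33010 bp (chr1:191216060-191216627) H3K27ac covered 158 to 495 bp in the 9 libraries, against 0 bp in Hep, and this was a place of H3K27me3 in Hep, 514 and 222 bp, with 0 bp in the 9 others. It was the only one of the 14 regions with H3K27me3 within 500 bp in any library. Over the whole Atf3 locus H3K27me3 covered 716 and 1037 bp in Hep, 1041 and 556 in early, 595 and 159 in intermediate, 0, 182 and 652 in late and 192 and 0 bp in BEC, much of it nearest to Batf3. In the Junb locus it lay mainly nearest to Mast1, Rtbdn and Best2, and in the Fosb locus mainly nearest to Ppm1n. Genome-wide, H3K27me3 peaks covered 1.27 Mb in Hep 1 and 3.27 Mb in Hep 2, against 0.946 in intermediate 2, 0.811 in late 1 and 0.561 Mb in BEC 2. What this breadth adds to the H3K27me3 values was not tested.

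Between sorted stages the main limma fit, without a replicate block, called no member for any measure. After quantile normalization the calls over all genes split otherwise. For promoter H3K4me3 there were 211 higher and 175 lower, against 17 and 27 as measured, for intermediate minus early, and 121 and 103, against 87 and 7, for BEC minus late. For promoter H3K27ac there were 37 and 58, against 554 and 32, for intermediate minus early, 267 and 341, against 676 and 152, for late minus early, and 101 and 78, against 64 and 18, for BEC minus late. As measured, intermediate minus early called 0.322% of promoters for H3K4me3, 4.62% for H3K27ac, and 0.00559% of loci for H3K27ac. Late minus early called 2.93%, 6.53% and 2.48%. BEC minus late called 0.688%, 0.647% and 0.0112%. Locus H3K4me1 had 0.0% called in all 3. Short-peak libraries (intermediate 1 and late 1 for H3K4me3) enter these contrasts: without them Atf3 promoter H3K4me3 was called higher for late minus early (2.07, adjusted p = 0.0434).

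Of the bZIP partners (16 listed, 12 tested for promoter H3K4me3 and 11 for H3K27ac), none was called for H3K4me3, and for H3K27ac 1 was lower in early minus Hep (Atf2 -1.45) and 3 were lower in late minus Hep (Atf6 -1.84, Atf2 -1.60, Nfe2l2 -1.24), while Jdp2, a Jun dimer partner that represses, was higher (1.84 ± 0.49, adjusted p = 0.0292). Of all genes, 25.3% were called for promoter H3K27ac in early minus Hep and 23.8% in late minus Hep. Jdp2 H3K27ac covered 218, 506 and 140 bp in late cells, against 0 and 0 bp in Hep. Of the 18 kinases and ternary complex factors upstream (16 tested), Elk3, an ETS factor that binds with Srf, was higher for late minus Hep in H3K4me3 (2.77 ± 0.51, adjusted p = 0.00426) and H3K27ac (1.81 ± 0.31, adjusted p = 0.00618). Its H3K4me3 covered 0 and 0 bp in Hep, 276 and 212 in early, 706 and 760 in intermediate, 230, 1066 and 729 in late and 1420 and 1219 bp in BEC. Map3k1, a kinase above the Jun kinases, was lower for late minus Hep (H3K4me3 -2.74 ± 0.48, adjusted p = 0.00329), where 6.29% of all genes were called for H3K4me3. For H3K27ac, genes called lower included Mapk14 (-3.29), Map3k1 (-1.95), Map3k5 (-1.73) and Map2k7 (-1.50) in early minus Hep, and Map3k5 (-1.75), Map2k7 (-1.64), Mapk14 (-1.61) and Srf (-1.15) in late minus Hep, beside the same 25.3% and 23.8% of all genes.

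Of 20 other immediate-early and feedback genes, 19 were tested at promoters and none was called for H3K4me3. For H3K27ac 4 were lower in early minus Hep (Dusp4 -2.94, Socs3 -2.41, Btg2 -1.99, Nr4a1 -1.89) and 2 in late minus Hep (Dusp4 -1.87, Egr1 -1.40), beside 25.3% and 23.8% of all genes called in these contrasts. Egr1, the immediate-early zinc-finger factor, overlapped Hep in H3K4me3, with 334 to 1188 bp in libraries of DDC-fed mice, against 1133 and 956 bp in Hep. At promoters, 4 genes of these lists were called higher than early in H3K27ac, where intermediate minus early called 4.62% of genes and late minus early 6.53%, with the splits under quantile normalization given above: Elk3 (intermediate minus early 2.20, late minus early 1.81), Socs3 (2.12 and 1.995) and, in late minus early, Nr4a1 (1.57); Mapk14 did in intermediate minus early (2.37). The medians of all genes for promoter H3K27ac were -0.93 (early minus Hep) and -0.81 (late minus Hep), and those of the lists were -1.31 and -1.24 (partners), -0.96 and -0.65 (kinases) and -0.999 and -0.77 (immediate-early).

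Likeness over 22 libraries, promoter H3K4me3 and H3K27ac together, each scaled per gene, is given as a description. The libraries share depth and breadth differences, and up to 11834 genes were compared with each member. The nearest genes were Man1a (r = 0.935) and Plekhg3 (0.932) to Jun, Phf12 and Axin2 (0.916 each) to Junb, and Ptges3 and Hs1bp3 (0.834 each) to Jund. Fos was nearest to Mmab and Mvk (0.967 each), which are enzymes of cobalamin and mevalonate metabolism, Fosb to Mcur1 (0.938) and Trak1 (0.932), Fosl2 to Mus81 (0.917) and Nudt4 (0.836), Atf3 to Pogk (0.863) and Ank (0.847), and Maff to Rrs1 (0.932) and Sesn3 (0.927). Fosl1, placed beside Ccdc85b, was nearest to Czib (0.95) and Phldb3 (0.939). Within the family the nearest pair was Jun and Maff (0.86).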

How the data were processed

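The deposited files are peak lists, 1 per library, and their positions in mm10 and their score column are the authors'. Bowtie2, Picard, deepTools and MACS2 were named, with no versions, per the submitters' processing notes; the sources used here do not give peak settings, controls or pooling. The deposited score of a peak is the authors' and its definition is not stated; its lowest value was 2.0 to 2.09 per library, and it served here to order the peaks of 1 library. Covered bases in 2500 bp windows or loci (50000 bp flanks) were computed in Python 3.11.15 and tested as log2(bp + 100) or log2(bp + 1000) with limma 3.58.1 in R 4.3.3. All 11 libraries of a mark entered 1 fit of 5 stages. Genes needed a peak in 2 or more libraries, and a call is a Benjamini-Hochberg adjusted p under 0.05 over all genes of a contrast.

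Starts came from RefSeq's promoter table, and otherwise from the gene end with more H3K4me3. All 9 members are named; of 3 other lists the text names each gene called at promoters in a contrast it counts, up to 6 per list and contrast by size, and the 2 most alike genes per member. Of the listed genes, 1 is not reported here. The members and lists were chosen with earlier results of these data known. The fit was tested on simulated data for early minus Hep. Log2 changes of 2 were recovered in 28% of cases for promoter H3K4me3 and 50% for promoter H3K27ac. For locus H3K27ac it was 90% and for locus H3K4me1 7%. Log2 changes of 4 were recovered in 87%, 80%, 96% and 30%, in the same order. A gene that was not called may therefore still have changed. Alternatives covered scaling, peak width and number, score, filter, windows, pseudocount, a replicate block and left-out libraries.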

Additional observations from a re-analysis of the deposited data

How the results depend on the processing

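Counts of the 9 AP-1 genes called were sensitive to scaling, peak width and single libraries. The share of all genes called under each setting is not given beside these counts. A higher count therefore cannot be read as particular to these genes. For promoter H3K4me3, early minus Hep called 1 gene; it called 0 without a filter or with a 400 bp pseudocount and 2 without short-peak libraries. Intermediate minus early (0) gave 2 with peaks resized to one width and 1 with a 10 bp pseudocount. Late minus early (0) gave 1 each with resized peaks, without short-peak libraries and with a 10 bp pseudocount. Late minus Hep (0) gave 2 with equal numbers of peaks and 1 each after quantile normalization, from the higher-scoring peaks of each library, without short-peak libraries and in a 1000 bp window. BEC minus late (0) gave 1 from the higher-scoring peaks.

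For promoter H3K27ac, early minus Hep (2) gave 0 after quantile normalization, resizing, equal numbers of peaks, no filter and a 10 bp pseudocount, and 5 with 400 bp. Late minus Hep (2) gave 0 after quantile normalization, 1 each with resizing, the higher-scoring peaks, no filter, no short-peak libraries and a 10 bp pseudocount, 4 in a 1000 bp window and 6 with a 400 bp pseudocount; under resizing Maff reversed to 0.60.

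For locus H3K27ac, early minus Hep (4) gave 1 each after quantile normalization, resizing, equal numbers, no filter and without promoter windows. Intermediate minus early (0) gave 2 after quantile normalization, 2 after resizing and 1 with a 100 bp pseudocount. Late minus early (0) gave 2 after quantile normalization and 1 each after resizing, without short-peak libraries, with a 100 bp pseudocount and with a 25000 bp flank. Late minus Hep (5) gave 0 after quantile normalization, 2 each with no filter, no short-peak libraries, a 100 bp pseudocount and no promoter windows, and 1 after resizing, in the other direction (Fos). Under resizing Maff (0.34) and Fosl1 (0.007754) also reversed.

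For locus H3K4me1, early minus Hep (0) gave 3 from the higher-scoring peaks, and late minus early (0) gave 2 after quantile normalization. Late minus Hep (2) gave 4 from the higher-scoring peaks, 1 with no filter, 1 without promoter windows, 0 with resizing, no short-peak libraries or a 100 bp pseudocount, and 1 after quantile normalization in the other direction (Jun). The causes were not tested.

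Leaving out 1 library at a time gave 0 to 1 genes for promoter H3K4me3 in early minus Hep and in late minus early, and 0 to 2 in late minus Hep. For promoter H3K27ac it gave 0 to 4 in early minus Hep, 0 to 2 in intermediate minus early and in late minus early, and 0 to 5 in late minus Hep. For locus H3K27ac it gave 0 to 6 in early minus Hep, 0 to 1 in late minus early and 0 to 7 in late minus Hep. For locus H3K4me1 it gave 0 to 3 in early minus Hep and 0 to 7 in late minus Hep.

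Same-numbered libraries of different stages did not all deviate together. Correlations ran from -0.0198 to 0.212 for promoter H3K4me3 and -0.0499 to 0.0952 for promoter H3K27ac. They ran from -0.275 to 0.294 for locus H3K27ac and -0.584 to 0.437 for locus H3K4me1. With 2 or 3 libraries per stage they cannot decide whether the numbers mark a shared mouse or day, which the labels do not say. With a replicate block, promoter H3K4me3 gave 4 genes for late minus Hep (Jun, Junb, Jund and Atf3, all lower) and 1 for intermediate minus early (Atf3, 1.81). In late minus Hep it gave 0 for promoter H3K27ac, 1 for locus H3K27ac and 0 for locus H3K4me1. Placing Fosl1 at its left end, and fitting sorted cells only, both chosen after seeing the data, called no member that the fit above did not call. Depth was not given, so what it limits could not be measured.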
